A study of Mus musculus with 12 samples.

Results

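Serine, glycine and one-carbon enzymes were followed in spinal cords of 6 ETAQ/+ and 6 WT mice. The group is 10 genes chosen by the role of their products (Phgdh, Psat1, Psph, Shmt1, Shmt2, Mthfd2, Mthfd1l, Aldh1l2, Gldc and Amt). The choice was made with earlier results of these data known. All 10 matched exactly 1 of the 38924 genes of the tables and were among the 17189 that passed the filter on low counts. ETAQ/+ mice, labelled ETAQ+/-, carry on 1 allele the delETAQ deletion in Gars, the gene for glycyl-tRNA synthetase, which loads glycine onto its tRNA. WT mice, labelled ETAQ+/+, carry no deletion. Each genotype held 3 females and 3 males, all aged 8 weeks and of the mixed strain background B6J;FVB, and no drug or transgene is named. Whole cord was sequenced by polyA-selected RNA-seq, so a value is an average over all its cells.

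Serine is made from a glycolytic intermediate in 3 steps. PHGDH oxidises 3-phosphoglycerate, PSAT1 adds the amino group and PSPH removes the phosphate. The serine hydroxymethyltransferases, SHMT1 of the cytosol and SHMT2 of mitochondria, turn serine into glycine and pass a carbon unit to folate. MTHFD2, MTHFD1L and ALDH1L2 carry that unit through mitochondrial folate, and the glycine cleavage system, of which GLDC and AMT are parts, breaks glycine down. In the nervous system serine synthesis is known mainly as a task of astrocytes, and many genes of serine synthesis and mitochondrial folate are known to be switched on by ATF4, a transcription factor that acts when the integrated stress response is triggered.

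In ETAQ/+ cords all 3 serine synthesis genes and the mitochondrial folate gene Mthfd2 rose, by 16.6% to 34.7%. The other 6 members did not pass the test. These were both serine hydroxymethyltransferase genes, the other mitochondrial folate genes Mthfd1l and Aldh1l2, and both glycine cleavage genes. The test called 4 of 10 members higher and 0 lower, against 0.582% of all genes higher, 1.34% lower and 1.92% in either direction (edgeR's quasi-likelihood test with a sex term, Benjamini-Hochberg adjusted p under 0.05 over all genes). The members were chosen with earlier results of these data known, so this contrast is no measure of enrichment. Over all genes the higher calls were 30.3% of the calls, and 45.3% with library totals in place of TMM. With library totals the same 4 members and Shmt2 were called higher.

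The promoters of the 4 genes that rose are shown because they moved together. Each runs from 250 bases before to 50 bases after the RefSeq start (GRCm38.p6), in the direction of transcription, with CCAAT and GGGCGG (in either orientation) in capitals.
Phgdh promoter, chr3:98339920-98340219, minus strand: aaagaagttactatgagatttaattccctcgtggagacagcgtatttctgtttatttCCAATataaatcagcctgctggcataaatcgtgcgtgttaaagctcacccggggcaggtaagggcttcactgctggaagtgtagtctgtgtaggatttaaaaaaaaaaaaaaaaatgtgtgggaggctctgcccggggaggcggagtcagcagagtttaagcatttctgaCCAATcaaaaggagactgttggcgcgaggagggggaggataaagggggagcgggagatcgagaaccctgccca
Psat1 promoter, chr19:15925010-15925309, minus strand: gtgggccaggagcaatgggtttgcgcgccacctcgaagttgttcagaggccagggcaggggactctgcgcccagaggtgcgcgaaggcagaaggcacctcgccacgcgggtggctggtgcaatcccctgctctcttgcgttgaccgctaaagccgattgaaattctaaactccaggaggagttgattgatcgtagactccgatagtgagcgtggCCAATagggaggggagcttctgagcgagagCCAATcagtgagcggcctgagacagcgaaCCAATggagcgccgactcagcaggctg
Psph promoter, chr5:129787204-129787503, minus strand: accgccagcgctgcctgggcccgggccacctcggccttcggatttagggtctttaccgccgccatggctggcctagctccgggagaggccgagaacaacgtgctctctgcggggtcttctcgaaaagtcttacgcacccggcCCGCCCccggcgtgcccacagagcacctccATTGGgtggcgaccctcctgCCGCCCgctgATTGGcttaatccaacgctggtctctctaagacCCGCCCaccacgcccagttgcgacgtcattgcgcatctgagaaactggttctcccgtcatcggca
Mthfd2 promoter, chr6:83317555-83317854, minus strand: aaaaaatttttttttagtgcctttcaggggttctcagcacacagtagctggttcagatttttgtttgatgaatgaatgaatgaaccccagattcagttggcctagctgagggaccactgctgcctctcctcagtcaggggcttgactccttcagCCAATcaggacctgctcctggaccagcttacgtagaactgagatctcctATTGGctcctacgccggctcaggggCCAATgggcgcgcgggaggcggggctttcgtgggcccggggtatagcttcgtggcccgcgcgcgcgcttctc
Each of these 4 windows held CCAAT. Psat1 has a second RefSeq window, chr19:15924573-15924872, which is not printed and held no CCAAT but GGGCGG at -11 and -2, so CCAAT was in 4 of the 5 windows of the genes that rose. Counted from the start site, its first base lay at -193 and -23 in Phgdh, at -36, -6 and 24 in Psat1, at -78 and -48 in Psph, and at -96, -47 and -22 in Mthfd2. None of the capital runs overlap. For each of the 4 genes the RefSeq start lies inside the GENCODE gene, whose annotated 5′ end is farther upstream. For Phgdh (base 98339990) and Psph (base 129787449) that end lies within the printed window. For Psat1 and Mthfd2 it lies beyond the window, so their windows describe 1 of several starts. Psph alone of the 4 printed windows also held GGGCGG, the core of a GC box, 3 times.

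RefSeq windows matched 9 of the 10 members (all but Aldh1l2), with 10 windows since Psat1 has 2. CCAAT was found in 7 of these 10 windows, against 37.4% of all 32851 windows, and GGGCGG in 6, against 35.7%. The windows of Shmt1, Gldc and Amt, genes that did not pass, held CCAAT too, and that of Shmt2 held neither motif. TGATGNAA, the core of the C/EBP-ATF composite element through which ATF4 acts on some of its targets, was in 0 of the 10 windows on either strand, against 3.97% of all windows. CACGTG was also in 0, against 7.15%. For comparison, only the asparagine synthetase gene Asns was looked at, a textbook ATF4 target. It held the composite element with its first base at -23, capitalised here.
Asns, stretch around the element: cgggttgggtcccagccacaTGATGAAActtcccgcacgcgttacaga
These counts describe letters in windows of 300 bases and were not tested. CCAAT and GGGCGG were chosen with earlier results of these data known, so their shares are no measure of enrichment. With 10 windows and shares of 3.97% and 7.15%, the counts of 0 say little. Asns was picked as a known case, so it makes no contrast between the members and other ATF4 targets.

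Library totals were 23595929 to 33382112 counts in ETAQ/+ mice and 26194571 to 41452662 in WT mice. A member's count in a single library ran from 81 for Shmt1 to 7605 for Psat1. By the numbers in their titles, mice 1 to 6 stood apart from mice 7 to 12, with 1356 genes (7.89%) called between these sets in a fit that also held genotype and sex. All 5 red blood cell, all 7 skeletal muscle, all 8 marrow neutrophil and all 5 Schwann cell markers were higher in mice 1 to 6. Both genotypes had 3 mice in each set. Mice 1 to 6 held 1 female and mice 7 to 12 held 1 male, both ETAQ/+, so set and sex can hardly be told apart. Of the 10 members 0 were called between the sets (adjusted p from 0.169 for Shmt1 to 0.969 for Amt) and 0 between the sexes, against 0.0931% of all genes for sex. Gars itself was at 145 ± 5.79 normalised CPM in ETAQ/+ and 127 ± 4.95 in WT (SD, n = 6 each, adjusted p = 0.00408), where normalised CPM is the count scaled to the library size after TMM correction. Gene counts do not separate the alleles, so this does not check the genotype labels. Markers of the labelled tissue were abundant in every library, with summed levels of 26545 to 37095 normalised CPM in ETAQ/+ and 28515 to 35303 in WT for 8 oligodendrocyte genes, and 3883 to 4227 in ETAQ/+ and 4038 to 4409 in WT for 9 neuronal genes.

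Transcript levels were compared between members in TPM, which is scaled per length. Psat1 had the highest median, at 153 TPM in ETAQ/+ and 130.3 TPM in WT. Phgdh followed with medians of 99.7 TPM in ETAQ/+ and 77.8 TPM in WT. Their partner of the last step, Psph, was far lower, at 20.1 TPM in ETAQ/+ and 14.8 TPM in WT.

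Of the genes for glycine handling, Amt came next after Phgdh, with medians of 30.8 TPM in ETAQ/+ and 30.5 TPM in WT, and Gldc was the lowest member, at 2.28 TPM in ETAQ/+ and 1.91 TPM in WT. AMT and GLDC act together, yet their mRNA levels per length were far apart in both genotypes. Mitochondrial Shmt2 was at 18.0 TPM in ETAQ/+ and 15.3 TPM in WT, and cytosolic Shmt1 at 3.53 TPM in ETAQ/+ and 3.31 TPM in WT. Mthfd2 (23.6 TPM in ETAQ/+, 16.4 TPM in WT) stood above Mthfd1l (9.08 TPM in ETAQ/+, 8.14 TPM in WT) and Aldh1l2 (8.81 TPM in ETAQ/+, 7.65 TPM in WT). In the WT order the ranges of Mthfd2, Shmt2 and Psph overlapped, and so did those of Mthfd1l and Aldh1l2, while the remaining neighbours were separate.

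**Figure D1:**
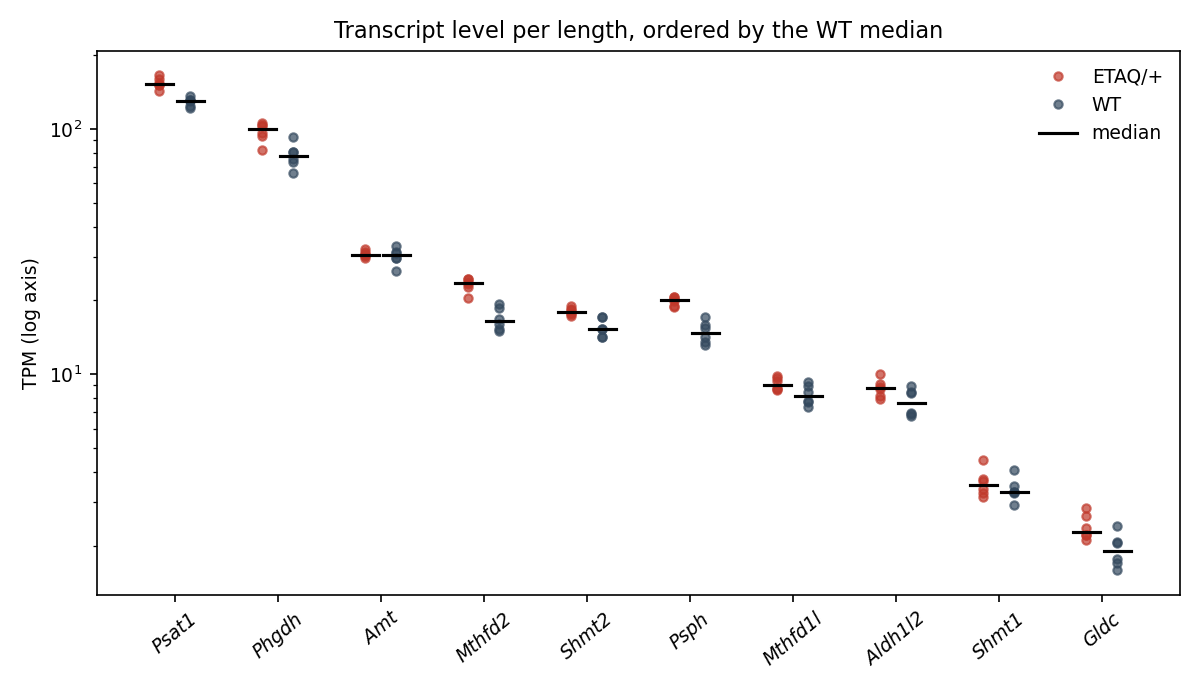
TPM of each member (log axis) in ETAQ/+ (left of each pair) and WT (right), with each point a mouse, n = 6 a genotype, and the black line the median. Members are ordered by the WT median, from Psat1 at 130.3 to Gldc at 1.91 TPM, and Psph, Shmt2 and Mthfd2 lie close together.

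Phgdh (ENSMUSG00000053398, chromosome 3, 98313170 to 98339990, GRCm38) encodes the dehydrogenase of the first and committing step. Its lowest, median and highest values were 82.8, 88.2 and 91.2 normalised CPM in ETAQ/+, against 67.8, 72.2 and 77.6 in WT. Every ETAQ/+ mouse lay above every WT mouse. The means were 87.4 ± 3.12 in ETAQ/+ and 72.1 ± 3.77 in WT, which is 0.28 ± 0.03 (SE) as a log2 fold change (edgeR adjusted p = 0.000344). Of its 75-base sequences 35.8% also occur in other annotated genes, and it is uncertain to that extent. Of 13 such genes 4 were in the tables, where they took at most 0.291% of the summed count, and the summed counts gave 0.28 ± 0.04 (adjusted p = 0.000354).

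Psat1 (ENSMUSG00000024640, chromosome 19, 15904678 to 15947337) encodes the aminotransferase of the second step. It stood at 187, 205 and 232 normalised CPM in ETAQ/+ (lowest, median, highest), against 170.01, 182 and 185 in WT. The lowest ETAQ/+ mouse was just above the highest WT mouse. Mice 5 and 6, both males of the set of mice 1 to 6, were the highest. The other ETAQ/+ male, mouse 11 of the other set, was at 201.5, within the range of the ETAQ/+ females. The means were 209.7 ± 16.8 in ETAQ/+ and 179.8 ± 6.22 in WT (log2 fold change 0.22 ± 0.04, adjusted p = 0.00537).

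Psph (ENSMUSG00000029446, chromosome 5, 129765558 to 129787449) encodes the phosphatase that releases serine. Its values were 13.3, 14.8 and 15.8 normalised CPM in ETAQ/+ and 9.92, 11.7 and 12.97 in WT. The groups did not overlap, and the 3 lowest values were those of the WT females. The means were 14.7 ± 0.880 in ETAQ/+ and 11.5 ± 1.13 in WT (log2 fold change 0.35 ± 0.05, adjusted p = 0.00109). On the opposite strand Cct6a, a chaperonin subunit gene, overlaps 10.4% of the Psph exon bases, and since the strand setting of the counting is not given in the sources used here, reads in that part cannot be assigned.

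**Figure D2:**
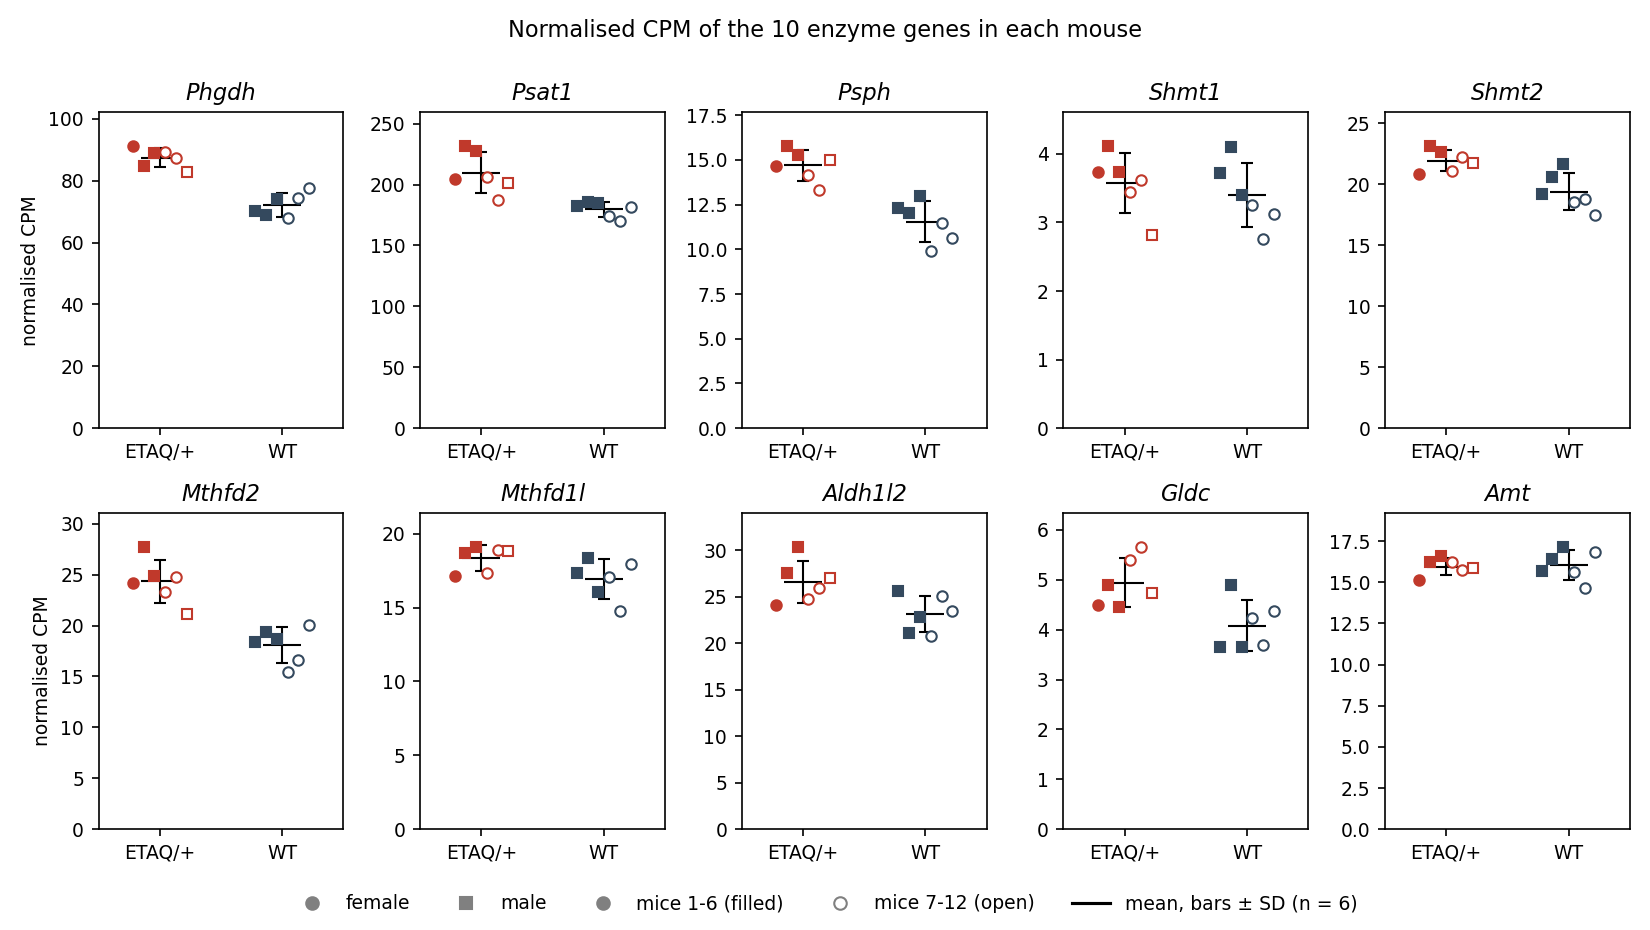
Normalised CPM (axes from 0) of the 10 members in 6 ETAQ/+ mice (left) and 6 WT mice (right), with circles for females, squares for males, filled symbols for mice 1 to 6, open symbols for mice 7 to 12, and the mean with bars of ± 1 SD. The genotypes do not overlap for Phgdh, Psat1, Psph and Mthfd2 and overlap for the other 6 members.

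The enzymes between serine and glycine were next. Shmt2 (ENSMUSG00000025403, chromosome 10, 127517123 to 127522444), the mitochondrial isozyme, stood at 20.8, 21.99 and 23.1 normalised CPM in ETAQ/+, against 17.5, 19.0 and 21.7 in WT. Of the 6 ETAQ/+ mice 4 lay above all WT mice. Its log2 fold change of 0.18 ± 0.04 fell just short of the threshold (adjusted p = 0.0533). The call turned on the setting: the adjusted p was 0.0415 with mouse set as a covariate, 0.0240 in DESeq2, 0.0396 without scaling factors, 0.0307 without mouse 4 and 0.0439 without mouse 11.

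Shmt1 (ENSMUSG00000020534, chromosome 11, 60788104 to 60811718), the cytosolic isozyme, was at 2.82, 3.68 and 4.11 normalised CPM in ETAQ/+ and at 2.76, 3.33 and 4.10 in WT. The groups covered almost the same range. Its log2 fold change of 0.08 ± 0.11 did not pass (adjusted p = 0.870). An interval of 2 SE on either side ran from -0.14 to 0.30, which holds the changes of Phgdh and Psat1.

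Mthfd2 (ENSMUSG00000005667, chromosome 6, 83305691 to 83325908) encodes the mitochondrial dehydrogenase and cyclohydrolase of folate. It stood at 21.2, 24.4 and 27.7 normalised CPM in ETAQ/+, against 15.4, 18.5 and 20.01 in WT. No ETAQ/+ mouse overlapped a WT mouse. The means were 24.3 ± 2.15 in ETAQ/+ and 18.1 ± 1.74 in WT, and the log2 fold change of 0.43 ± 0.07 (adjusted p = 0.00283) was the largest among the 10 members. Mthfd2 lies on the same chromosome as Gars, 28.3 Mb from it.

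Mthfd1l (ENSMUSG00000040675, chromosome 10, 3973118 to 4167081), which encodes the mitochondrial formyl-folate synthetase that releases formate, was at 17.1, 18.8 and 19.1 normalised CPM in ETAQ/+ and 14.7, 17.2 and 18.4 in WT. The groups overlapped (log2 fold change 0.12 ± 0.05, adjusted p = 0.460), and the interval of 2 SE ran from 0.01 to 0.23. Aldh1l2 (ENSMUSG00000020256, chromosome 10, 83487450 to 83534140), which encodes the mitochondrial dehydrogenase that oxidises the formyl unit to carbon dioxide, was at 24.1, 26.5 and 30.3 in ETAQ/+ and 20.8, 23.1 and 25.6 in WT. Here 4 of 6 ETAQ/+ mice lay above all WT mice, without a call (0.20 ± 0.06, adjusted p = 0.166, interval 0.07 to 0.32). D10Wsu102e overlaps 14.1% of the Aldh1l2 exon bases on the opposite strand.

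Gldc (ENSMUSG00000024827, chromosome 19, 30098447 to 30175429), the glycine-binding decarboxylase of the cleavage system, stood at 4.45, 4.81 and 5.66 normalised CPM in ETAQ/+, against 3.65, 3.96 and 4.90 in WT. The log2 fold change of 0.27 ± 0.10 was close to that of Phgdh but with a wider SE, and did not pass (adjusted p = 0.259, interval 0.08 to 0.47). Its highest values were in the ETAQ/+ females 8 and 9. Amt (ENSMUSG00000032607, chromosome 9, 108296853 to 108302302), the aminomethyltransferase of the same system, was at 15.1, 16.03 and 16.6 in ETAQ/+ and 14.6, 16.1 and 17.2 in WT, with a log2 fold change of -0.01 ± 0.05 (adjusted p = 0.974). The interval of 2 SE around the Amt value ran from -0.10 to 0.08.

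Counted over the 10 members, the CPM of the genotypes did not overlap for 4, all higher in ETAQ/+, against 0.657% of all genes in that direction and 2.01% in either. At an unadjusted p under 0.05 there were 7 members, all with a positive log2 fold change, against 4.53% of all genes in that direction and 10.9% in either. The log2 fold change was above 0 for 9 members, all but Amt, against 51.9% of all genes. The median of the members was 0.21 and that of all genes tested 0.00. Since earlier results of these data were known when the members were chosen, these shares are no measure of enrichment. Amt turned positive with library totals alone (0.014) and in TPM (0.033).

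Within females 2 members were called, Phgdh (0.29 ± 0.05) and Psph (0.40 ± 0.07), and 0.739% of all genes. Within males 1 member was called, Phgdh (0.27 ± 0.05), and 0.669% of all genes. With 3 mice a genotype in each sex, Mthfd2 was at 0.47 ± 0.10 in females (adjusted p = 0.0504) and 0.39 ± 0.10 in males (adjusted p = 0.152). The difference between the sexes was tested itself, in a fit without a set term. All 3 WT females were in mice 7 to 12 and all 3 WT males in mice 1 to 6. The effects within sexes and their difference can thus hardly be told apart from mouse set. The edgeR interaction called 0 members and 0 of all 17189 genes (0%), with 0 members and 852 genes (4.96%) at an unadjusted p under 0.05. By sign alone 8 members were higher in ETAQ/+ in both sexes, against 28.2% of all genes. Shmt1 had the largest interaction of the members, 0.32 ± 0.21 (female minus male effect, adjusted p = 0.903), at 0.24 in females and -0.07 in males.

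Within mice 1 to 6 Phgdh (0.29 ± 0.05) and Psat1 (0.30 ± 0.05) were called, beside 0.803% of all genes. Within mice 7 to 12 Phgdh (0.27 ± 0.05) and Psph (0.37 ± 0.08) were called, beside 0.937%. Mthfd2 was at 0.43 ± 0.10 in mice 1 to 6 (adjusted p = 0.0621) and 0.42 ± 0.10 in mice 7 to 12 (adjusted p = 0.0705). Psat1 was at 0.14 ± 0.05 in mice 7 to 12 (adjusted p = 0.270), and its difference between the sets, 0.15, had an unadjusted p of 0.0470 and an adjusted p of 0.995. It was the 1 member under an unadjusted 0.05 for that difference, against 3.97% of all genes, and 0 members and 0% of all genes were called. By sign alone 9 members were higher in ETAQ/+ in both sets, against 27.7% of all genes.

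**Figure D3:**
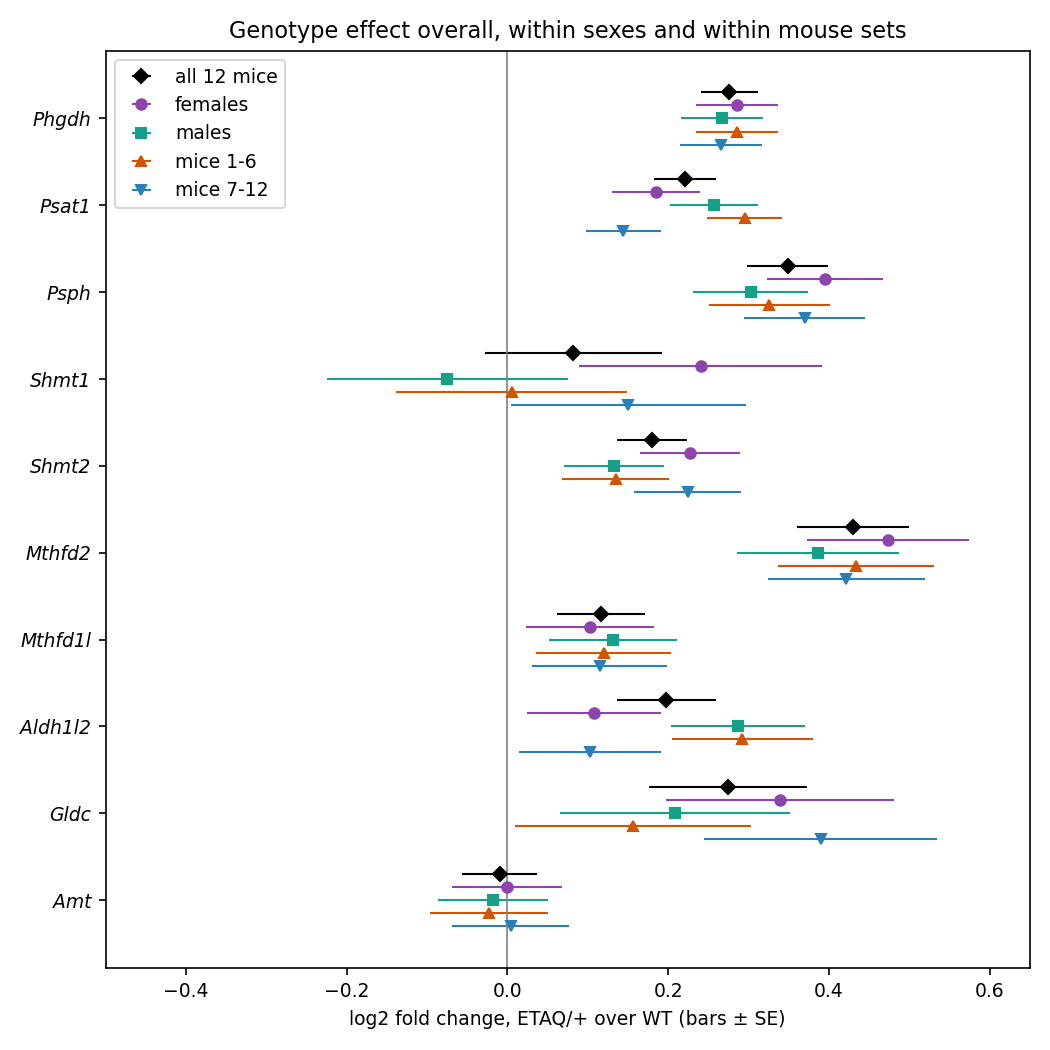
Log2 fold change of ETAQ/+ over WT with bars of ± 1 SE for each member, over all 12 mice and within females, males, mice 1 to 6 and mice 7 to 12. Phgdh, Psph and Mthfd2 keep similar values in every subset, Shmt1 is at 0.24 in females and -0.07 in males, and Amt stays near 0.

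Related enzymes were set against each other within each mouse by the log2 ratio of their TPM, in 4 pairs with an exact two-sided permutation test over 924 splits. Of these, 3 pairs set a mitochondrial enzyme against its cytosolic counterpart. The fourth pair sets Mthfd2 against Mthfd2l, a second mitochondrial dehydrogenase of the same kind. The Mthfd2 to Mthfd2l ratio was 1.02 ± 0.21 in ETAQ/+ and 0.59 ± 0.15 in WT (SD, n = 6 each). Of the 6 ETAQ/+ mice 5 were above all WT mice, and mouse 11 was within the WT range, though above the 3 WT mice of its own set. The difference was 0.43 (exact p = 0.00866, 0.0346 adjusted over the 4 pairs), at 0.47 within mice 1 to 6 and 0.39 within mice 7 to 12. Without mouse 1, mouse 5 or mouse 6, all ETAQ/+ of the first set, the difference was 0.40, 0.40 and 0.39 and no longer passed (adjusted exact p = 0.0519 for each). Mthfd2l itself had a log2 fold change of -0.01 ± 0.06 in counts (adjusted p = 0.986).

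The pairs of different compartments did not pass. Shmt2 to Shmt1 stood at 2.33 ± 0.21 in ETAQ/+ and 2.19 ± 0.19 in WT (exact p = 0.249, adjusted 0.456). Aldh1l2 to the astrocyte enzyme gene Aldh1l1 was at -2.08 ± 0.20 in ETAQ/+ and -2.17 ± 0.25 in WT (exact p = 0.502, adjusted 0.502). Mthfd1l to Mthfd1, the cytosolic enzyme that combines all 3 folate steps, was at -1.54 ± 0.08 in ETAQ/+ and -1.62 ± 0.18 in WT (exact p = 0.342, adjusted 0.456). In both genotypes the mitochondrial form was thus the higher one for serine hydroxymethyltransferase and the lower one for the other 2 pairs.

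**Figure D4:**
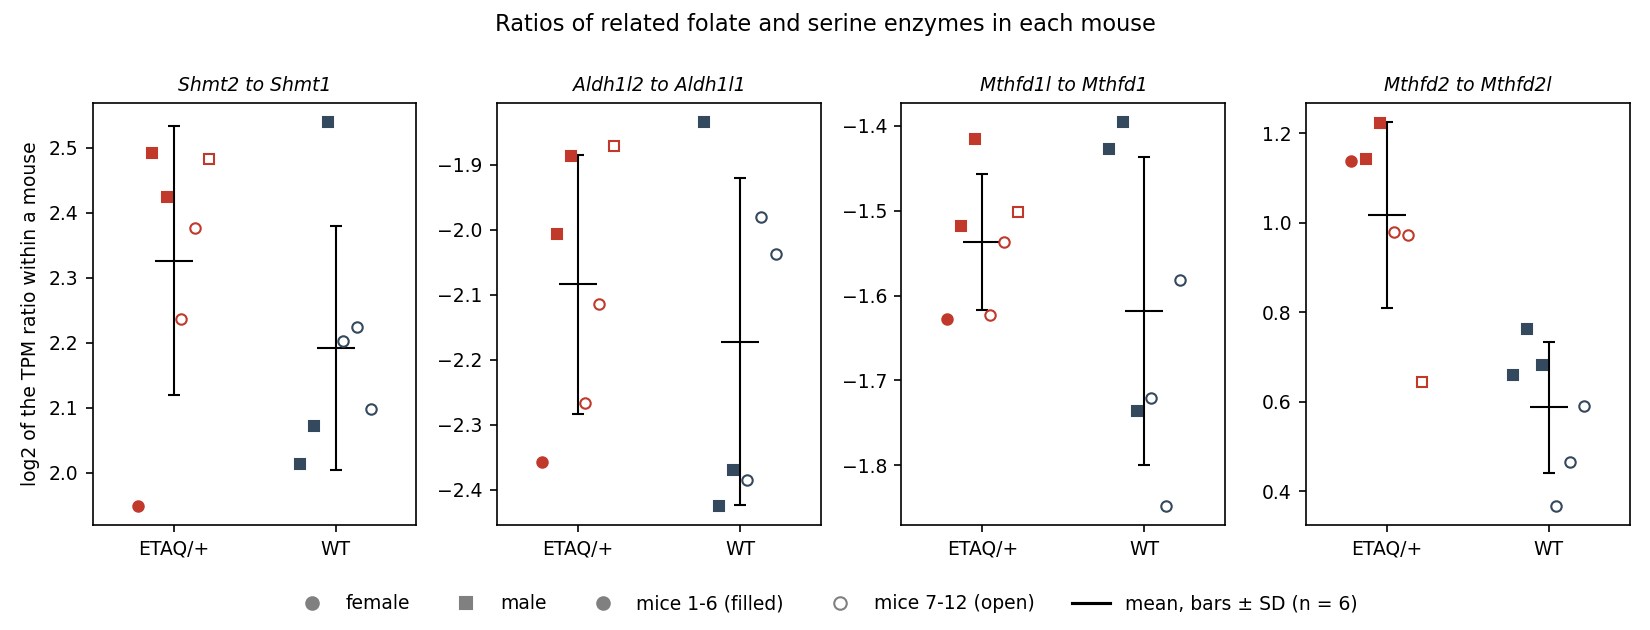
Log2 of the TPM ratio of 4 pairs of related enzymes in each ETAQ/+ mouse (left) and WT mouse (right), with circles for females, squares for males, filled symbols for mice 1 to 6, open symbols for mice 7 to 12, and the mean with bars of ± 1 SD, n = 6 a genotype; the vertical axes differ and do not start at 0. Only the Mthfd2 to Mthfd2l pair passed the exact test over all 12 mice (adjusted p = 0.0346; 0.0519 without mouse 1, 5 or 6), with mouse 11 the lowest ETAQ/+ point.

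Shifts between isoforms were looked for in the mean transcript length that the counting software reports for each gene. It is fixed for Shmt2 and Gldc, which have 1 transcript in the tables. The other 8 members had 4 to 11 transcripts and 0 were called (limma, adjusted p = 1 for all), against 3 of 10902 genes tested (0.0275%). At an unadjusted p under 0.05 there were 0 members, against 4.7% of these genes. Phgdh averaged 1766 ± 68.9 bases in ETAQ/+ and 1776 ± 98.3 in WT, and Psat1 2548 ± 19.8 in ETAQ/+ and 2537 ± 17.9 in WT.

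Beyond the 10 members, 56 genes of the surrounding metabolism were listed, of which 51 were tested. Of the 51, 1 rose and 1 fell, against 0.582% and 1.34% of all genes. The median log2 fold change of the 51 was -0.0031, that of the members 0.21. Cth, the lyase that ends the route from serine to cysteine, rose to 4.41 ± 0.601 normalised CPM in ETAQ/+, against 2.07 ± 0.222 in WT (log2 fold change 1.09 ± 0.12, adjusted p = 5.91e-05). Pgk1, the glycolytic kinase that makes 3-phosphoglycerate, fell to 358 ± 6.44 in ETAQ/+, against 389 ± 14.3 in WT (-0.12 ± 0.03, adjusted p = 0.0455), but 52.8% of its 75-base sequences also occur in other annotated genes, so it is uncertain.

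Other parts of each step were mostly uncalled, as were most genes, with 1.92% of all genes called in either direction. Counts of 0 in lists this short thus say little. Of the other glycine cleavage parts, Gcsh, the lipoyl carrier, was at -0.12 ± 0.09 (adjusted p = 0.685) and Dld, the dehydrogenase shared with other complexes, at 0.00 ± 0.03 (0.991). Among 9 tested genes of other glycine metabolism 0 were called, and the smallest p belonged to Sardh, which turns sarcosine into glycine (-0.08 ± 0.05, adjusted p = 0.654). Among 10 other serine genes 0 were called, with the seryl-tRNA synthetase gene Sars at 0.10 ± 0.03 (adjusted p = 0.0735) and separate genotypes, at 179 to 189 normalised CPM in ETAQ/+ and 167 to 176 in WT. Of 16 tested folate genes 0 were called, and the smallest p was that of the folate receptor gene Folr1 (0.62 ± 0.35, adjusted p = 0.587). Folr1 was low, at 0.382 ± 0.152 normalised CPM in ETAQ/+ and 0.253 ± 0.103 in WT. Its lowest WT value, 0.0955, lay within the 0.0724 to 0.127 CPM that a count of 3 amounts to. In the methionine cycle Cth was the 1 call of 8, and Mat2a, which makes S-adenosylmethionine, was at 0.09 ± 0.06 (adjusted p = 0.647). Of 6 genes around 3-phosphoglycerate all had a log2 fold change below 0, where 51.9% of all genes were above 0. Pgam1, the mutase that draws on 3-phosphoglycerate, was at -0.09 ± 0.03 (adjusted p = 0.165), but 34.9% of its 75-base sequences also occur in other annotated genes. Eno2, the neuronal enolase, was at -0.09 ± 0.04 (adjusted p = 0.328). Eno1 was at -0.24 ± 0.17 (adjusted p = 0.698), and 23.0% of its 75-base sequences also occur in other annotated genes. Eno3 (-0.56 ± 0.46) had a highest WT value of 26.4 normalised CPM against a WT median of 5.22. Within mice 7 to 12 Eno1 (0.07 ± 0.22) and Eno3 (0.17 ± 0.54) were above 0 and the others below.

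**Figure D5:**
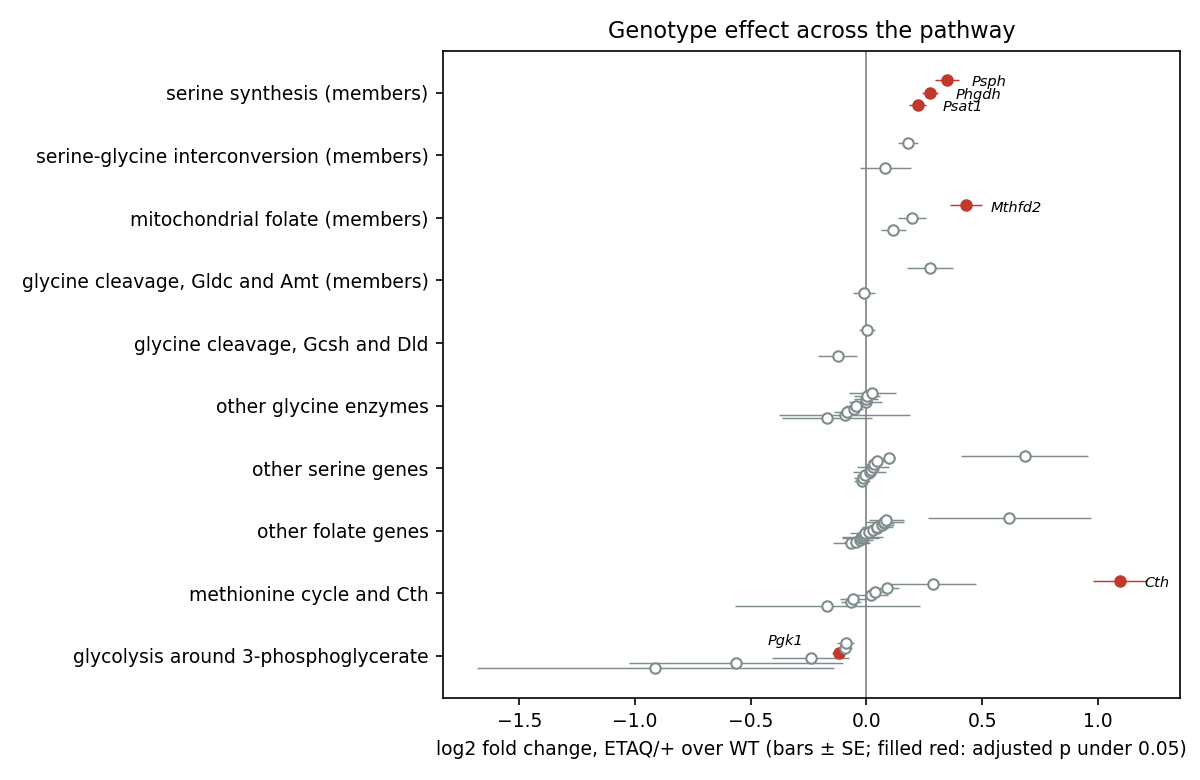
Log2 fold change of ETAQ/+ over WT (bars ± 1 SE) for the members, in the top 4 lines, and for the tested genes of 6 surrounding lists, with red filled points past an adjusted p of 0.05 and named. Calls fall on the 3 serine synthesis genes, Mthfd2, Cth and Pgk1.

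Of 19 known ATF4 targets outside these pathways, chosen with earlier results of these data known, 8 were called higher and 0 lower, against 0.582% and 1.34% of all genes, with a median log2 fold change of 0.29. Atf4, not counted among them, was at 99.3 ± 4.67 normalised CPM in ETAQ/+ and 74.7 ± 5.49 in WT (0.41 ± 0.04, adjusted p = 1.43e-05). Asns was at 0.27 ± 0.03 (adjusted p = 0.000453), close to Phgdh.

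Since serine synthesis is known from astrocytes, their markers are given beside it. Of 14 astrocyte genes 2 rose, Slc1a3 and Agt, against 0.582% of all genes, and the median log2 fold change of the 14 was -0.0012. The summed level was 8904 to 10372 normalised CPM in ETAQ/+ and 9215 to 9738 in WT, with none of the 14 at 0. Between the sets, 4 of the 14 were called higher in mice 1 to 6, against 7.89% of all genes called in either direction. Of 8 tested motor neuron genes 5 fell, against 1.34% of all genes. The summed level of the 8 was 867 to 996 in ETAQ/+ and 1300.07 to 1500 in WT. The part of either list in the members' values was not tested. In whole tissue, fewer cells of a type and less RNA per cell cannot be told apart.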

How the data were processed

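Spinal cord RNA of 6 ETAQ/+ and 6 WT mice was sequenced as polyA-selected libraries, per the labels' protocols. Bowtie2 2.2.0 and RSEM 1.2.12 are named per the submitters' processing notes. The kit keeps strand, but the strand setting of the counting, the genome build and the annotation are not given in the sources used here. Deposited tables hold, per the file headers, expected counts per gene, which RSEM can divide between similar genes and of which 15.4% of values were not whole. They also hold TPM and FPKM, both scaled by length by the authors' software per the file headers (FPKM was not tested), and a mean transcript length in bases as other columns.

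Expected counts were rounded and analysed in R 4.3.3 with edgeR 4.0.16 (filterByExpr on the 4 genotype-by-sex groups, TMM factors 0.975 to 1.02, robust quasi-likelihood test, sex as covariate). Adjustment was by Benjamini-Hochberg over every gene tested, calls were made under 0.05, and SE is the absolute log2 fold change over the square root of F. Effects within sexes and within mouse sets came from fits of all 12 libraries. limma 3.58.1 tested log2 transcript length, and DESeq2 1.42.0 was an alternative. A count of 3, the limit that a count of 0 allows, is 0.0724 to 0.127 CPM, for counting error only. Positions and shared 75-base sequences came from GENCODE M21 (GRCm38), promoters from RefSeq. The main genotype fit and the transcript length fit were run on simulated data. The pass mark of the genotype fit was set on changes larger than those of the members. Fits within sexes and sets, the interaction and the ratio test were not simulated. Members, lists and the CCAAT and GGGCGG motifs were chosen with earlier results of these data known. The naming rule took all members, each called gene of the surrounding lists, up to 4 uncalled genes with the smallest p per list, the partner genes of the ratios, Atf4, Asns and Gars. P-values measure the spread between mice.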

Additional observations from a re-analysis of the deposited data

How the results depend on the processing

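The 4 member calls (Phgdh, Psat1, Psph and Mthfd2) were made under every alternative that tested 1 genotype effect over all 12 mice. They were also made without any single mouse, where 4 to 5 members were called. Within mice 1 to 6, within mice 7 to 12, and in mice 7 to 12 alone without a sex term (added after seeing the data), 2 were called in each, with 3 mice a genotype behind each estimate. All genes called numbered 330 (100 higher, 230 lower). Without one mouse at a time they numbered 239 to 316 (75 to 98 higher, 164 to 218 lower). With library totals alone they numbered 296, 134 higher and 162 lower, so higher calls were 45.3% of calls against 30.3% with TMM. DESeq2 called 506 (162 higher), and mouse set as a covariate gave 151 higher. In limma on TPM 162 genes were called (76 higher, 86 lower) with a pseudocount of 1 and 160 (73 higher, 87 lower) with 0.1, or 46.9% and 45.6% higher. Within mice 1 to 6 the count was 138 (48 higher, 90 lower), within mice 7 to 12 it was 161 (43 higher, 118 lower), and in mice 7 to 12 alone 207 (56 higher, 151 lower). The cause of these shifts was not tested.

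Amt, with a log2 fold change of -0.0094, changed sign with library totals alone (0.014), in log2(TPM + 1) (0.033) and log2(TPM + 0.1) (0.034), within mice 7 to 12 (0.0038), in those mice alone (0.022), and between -0.031 and 0.014 without one mouse at a time, never past the threshold. Genes called for transcript length numbered 3, and 1 to 6 without one mouse at a time. Without one mouse at a time the log2 ratio difference of Mthfd2 to Mthfd2l was 0.39 to 0.50 (exact p adjusted over the 4 pairs 0.00866 to 0.0519, past 0.05 without mouse 1, 5 or 6), of Shmt2 to Shmt1 0.10 to 0.21, of Aldh1l2 to Aldh1l1 0.04 to 0.16, and of Mthfd1l to Mthfd1 0.04 to 0.13. The interaction with sex called 0 genes under RLE scaling too. No paired analysis was possible because the titles number the mice 1 to 12 and no number is shared between the genotypes.

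Depth limits Shmt1 and Gldc most, with as few as 81 and 114 counts in a library, and their SEs, 0.11 and 0.10, are the widest among the members. Near copies limit Phgdh and overlapping genes limit Psph and Aldh1l2.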

Other observations

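The unit changed how far the genotypes of Phgdh stood apart. In normalised CPM they did not overlap, while in TPM they ran from 82.4 to 106 in ETAQ/+ and from 65.9 to 92.4 in WT and overlapped. TPM divides by the estimated transcript length, which for Phgdh ranged from 1690 to 1871 bases in ETAQ/+ and from 1643 to 1886 bases in WT. Psat1, whose length varied less (2528 to 2578 bases in ETAQ/+, 2511 to 2560 in WT), stayed separate in TPM, at 142 to 165 in ETAQ/+ and 122 to 137 in WT. Shmt2, which overlapped in CPM, was separate in TPM, at 17.3 to 19.0 in ETAQ/+ and 14.1 to 17.1 in WT. Its length is fixed in the tables. In limma on log2(TPM + 1) Shmt2 still did not pass (adjusted p = 0.126). TPM was used without TMM factors. The median log2 fold change of all genes was 0.036 in that fit, against 0.0043 in the main fit. Dixon's test was applied to 36 sets of 6 values (CPM of the members and 4 related genes, and the ratios) and marked 0 of them, where chance marks about 1 in 20.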
